A study of Mus musculus with 4 samples.

Results

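Klf10 and 9 of its relatives, Klf2, Klf3, Klf4, Klf5, Klf6, Klf7, Klf9, Klf11 and Klf13, are described here in mouse colorectal cancer cells with and without a hairpin against Aurora-A. These 10 genes were taken by symbol from the 51905 genes of the deposited tables, which name 17 Kruppel-like factor genes in all. Klf10 was selected on its knockdown fold, which is low in both lines, and its relatives were taken beside it with their values known. The knockdown values of these 10 genes are therefore a description and carry no test. CT26 and MC38 cells, established mouse lines, were infected with lentivirus carrying 1 hairpin, either shGFP as the control or shmaurka-1 against Aurora-A, and RNA was collected 48 h after seeding. Each of the 4 conditions, CT26 shGFP, CT26 shmaurka-1, MC38 shGFP and MC38 shmaurka-1, gave 1 library, so no comparison of hairpins within a line has a replicate. All libraries carry the genotype label WT, and each line stands for 1 cell line only.

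Kruppel-like factors are transcription factors whose C-terminal zinc fingers bind GC-rich and CACCC elements, and whose N-terminal parts differ and set the partners they recruit. Klf2, Klf4, Klf5, Klf6 and Klf7 are usually grouped as activators, Klf3 with Klf8 and Klf12 as repressors that bind CtBP, and Klf9, Klf10, Klf11, Klf13, Klf14 and Klf16 as factors that recruit the Sin3 corepressor. Klf10 and Klf11 are also named TIEG1 and TIEG2, since both were found as early genes induced by TGF-beta, and Klf5 and Klf4 are known in the gut for the proliferating crypt and the differentiated surface of the epithelium.

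Whole fragments were recovered from the deposited estimated counts, and each library held 22207769 to 23752267 of them. The targeted gene, Aurka, gave 5724 fragments in CT26 shGFP, 1093 in CT26 shmaurka-1, 2300 in MC38 shGFP and 413 in MC38 shmaurka-1, which was lower with shmaurka-1 in both lines. The labels call CT26 a fibroblast and MC38 an epithelial cell. Of 8 colon epithelial markers, 4 or 5 were above 3 fragments in a library, their summed FPKM (fragments scaled to transcript length and depth) was 42.6 to 43.0 in CT26 and 0.964 to 1.24 in MC38, and Epcam was at or under 3 fragments in all 4. Of 9 fibroblast and mesenchymal markers, 8 or 9 were above that floor, with sums of 920.3 to 929.2 in CT26 and 571.2 to 577.8 in MC38. Ptprc and Cd3e, which mark leukocytes, were at or under the floor in every library. The part of these marker levels in the line differences below was not tested.

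RefSeq promoter sequences (GRCm38.p6, from 250 bases before to 50 bases after the start) were matched for 8 of the 10 genes, all but Klf5 and Klf10. Those of Klf3, Klf6 and Klf11 are shown, because Klf3 and Klf6 were among the genes with the widest excess in CT26 and Klf11, the closest relative of Klf10, was the gene called higher in MC38. Each runs 5′ to 3′ on the strand of its gene, all on the plus strand: chr5:64803271-64803570 for Klf3, chr13:5861239-5861538 for Klf6 and chr12:24651121-24651420 for Klf11. Capitals mark GC boxes, the letters GGGCGG or their reverse complement CCGCCC.
Klf3: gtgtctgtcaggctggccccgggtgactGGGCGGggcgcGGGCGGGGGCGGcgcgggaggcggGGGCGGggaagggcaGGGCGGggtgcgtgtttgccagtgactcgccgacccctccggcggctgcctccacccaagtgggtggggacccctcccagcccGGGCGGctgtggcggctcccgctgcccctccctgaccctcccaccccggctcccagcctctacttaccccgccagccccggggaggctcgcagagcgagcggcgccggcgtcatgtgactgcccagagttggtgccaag
Klf6: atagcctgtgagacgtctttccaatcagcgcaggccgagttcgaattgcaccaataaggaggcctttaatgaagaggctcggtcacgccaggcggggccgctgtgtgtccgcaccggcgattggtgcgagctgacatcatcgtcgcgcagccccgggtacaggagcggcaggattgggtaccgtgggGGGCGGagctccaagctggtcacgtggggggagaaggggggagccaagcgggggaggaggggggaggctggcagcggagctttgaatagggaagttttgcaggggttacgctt
Klf11: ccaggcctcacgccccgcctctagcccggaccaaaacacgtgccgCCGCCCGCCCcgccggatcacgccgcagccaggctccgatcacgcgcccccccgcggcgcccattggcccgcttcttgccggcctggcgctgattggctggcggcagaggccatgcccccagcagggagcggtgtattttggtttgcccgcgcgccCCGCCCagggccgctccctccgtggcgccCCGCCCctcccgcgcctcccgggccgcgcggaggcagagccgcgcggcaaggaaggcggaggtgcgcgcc

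The Klf3 sequence held 6 GC boxes, that of Klf11 held 4 and that of Klf6 held 1. Among the others, Klf4 had 4, Klf13 had 3, Klf2 had 2, Klf7 had 1 and Klf9 had 0 in these 300 bases. Of 32851 mouse promoters of the same length, 35.7% held at least 1 GC box and 5.49% held 4 or more. The CACCC box (CACCC or GGGTG, either strand), which 57.5% of all promoters held, was found 5 times in Klf3, 3 times in Klf7, once each in Klf2, Klf9 and Klf13, and 0 times in Klf4, Klf6 and Klf11. The genes with several GC boxes thus included both a gene lower and a gene higher in MC38, and these matches are letters only, not measured sites.

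Klf10 (ENSMUSG00000037465, GRCm38 chromosome 15, 38294412 to 38300707) encodes a Sin3-recruiting repressor. It gave 1374 fragments in CT26 shGFP, 682 in CT26 shmaurka-1, 1245 in MC38 shGFP and 440 in MC38 shmaurka-1. Both knockdown libraries lie below both controls, and the MC38 knockdown is the lowest of the 4. After TMM scaling, which sets libraries to a common level from the bulk of genes, and with 1 count added, the CT26 knockdown held 0.54 times the control count, a log2 fold of -0.89 (95% counting interval -1.02 to -0.76). In MC38 the ratio was 0.361, a log2 fold of -1.47 (-1.63 to -1.31). The intervals cover counting error between libraries and not the spread between cultures, and PCR copies are not independent molecules. Fewer cells holding the transcript and less transcript in each cell cannot be told apart in bulk RNA.

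Among the 11928 genes that averaged 10 counts or more in both lines, Klf10 ranked 194th from the lowest fold in CT26 and 15th in MC38. Folds below 0.6 were found for 2.57% of genes in CT26, 1.03% in MC38 and 0.168%, or 20 genes, in both lines, and among the 10 Kruppel-like factors this was Klf10 alone in each line. The selection used this contrast, so nothing is read from that count. Folds above 1.5 were found for 3.2% of genes in CT26 and 2.47% in MC38, and for 0 of the 10 factors in either. edgeR's quasi-likelihood test for an effect common to both lines called 1.67% of genes higher and 1.12% lower. Calls of the 10 factors in that test are not given, because the same contrast was used to select Klf10.

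**Figure D1:**
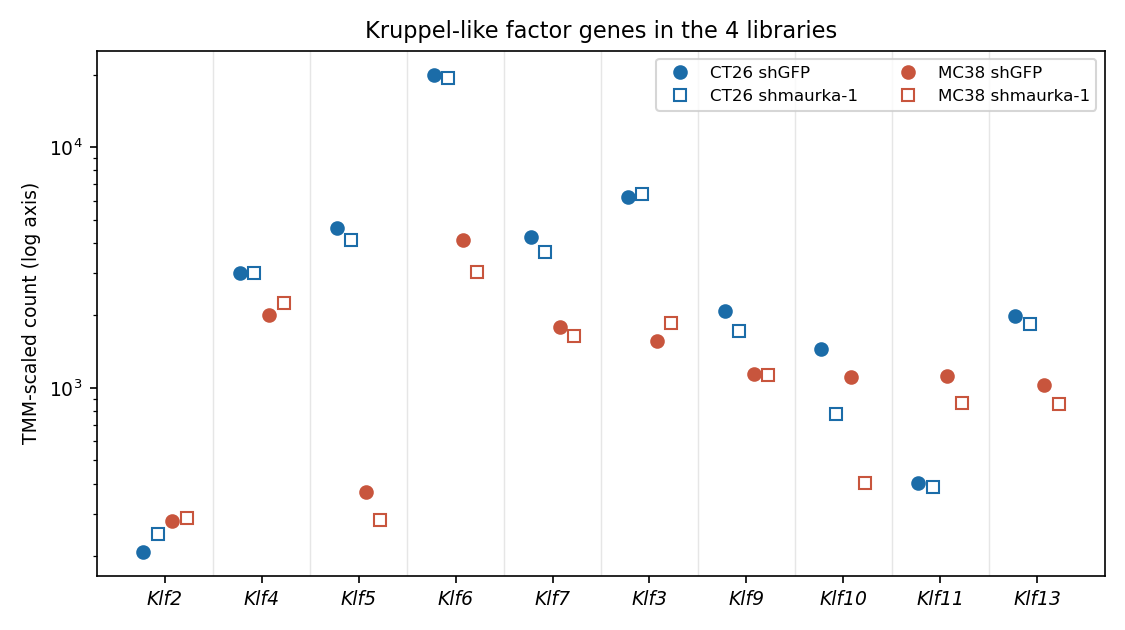
TMM-scaled counts (log axis) of the 10 Kruppel-like factor genes in each of the 4 libraries, with blue for CT26, red for MC38, filled circles for shGFP and open squares for shmaurka-1. Klf10 stands at 1448 and 782 in CT26 and at 1112 and 401 in MC38, control first. For its relatives except Klf2 the 2 colours stand further apart than the 2 symbols, most widely for Klf5, Klf6 and Klf3.

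The other 9 genes lay much closer to no change. In CT26 their log2 folds ran from -0.28 for Klf9 to 0.24 for Klf2, with a median of -0.07 beside -0.01 over all genes, and Klf10 lay 0.82 below that median. In MC38 they ran from -0.43 for Klf6 to 0.24 for Klf3, with a median of -0.13 beside 0.00 over all genes, and Klf10 lay 1.34 below it. In each line 6 of the 9 were below 0 and 3 above.

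**Figure D2:**
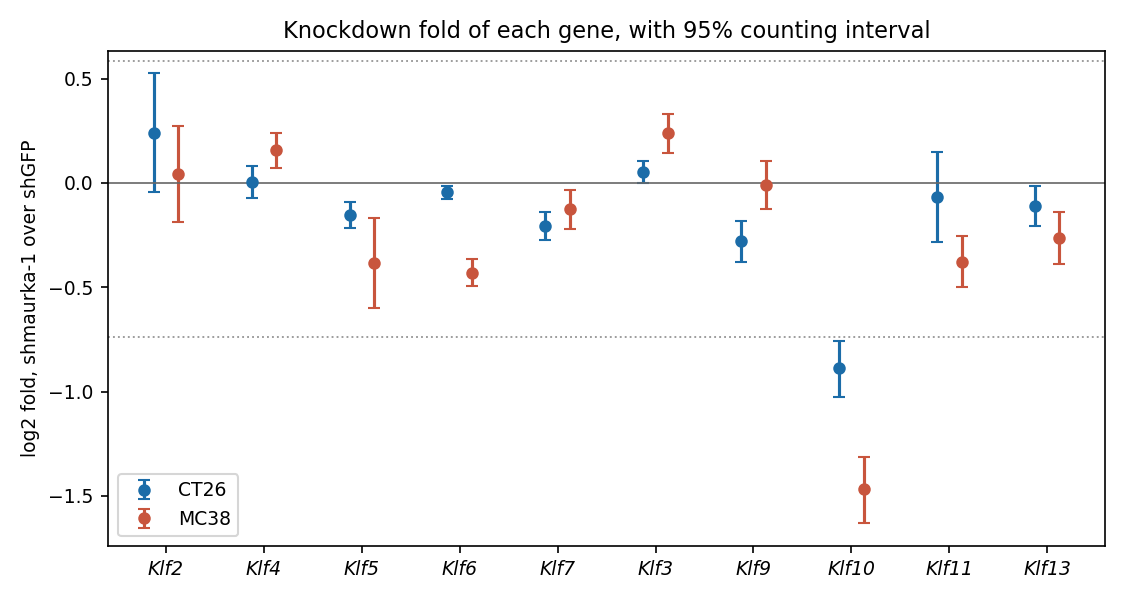
Log2 fold of shmaurka-1 over shGFP for each gene in CT26 (blue) and MC38 (red), with 95% counting intervals as bars and dotted lines at folds of 1.5 and 0.6. Klf10 lies at -0.89 and -1.47, and no other point falls below -0.43.

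Of the activators, Klf2, a regulator of endothelial and lymphocyte quiescence, gave 198 fragments in CT26 shGFP, 215 in CT26 shmaurka-1, 313 in MC38 shGFP and 316 in MC38 shmaurka-1, few beside most of the others. Its knockdown folds of 0.24 (-0.05 to 0.53) in CT26 and 0.04 (-0.19 to 0.27) in MC38, in log2 units, both had intervals that included 0. Klf4, a factor of epithelial differentiation and of reprogramming to pluripotency, gave 2849 and 2629 fragments in CT26 shGFP and shmaurka-1, and 2258 and 2464 in MC38. The fold of Klf4 was 0.00 (-0.07 to 0.08) in CT26 and 0.16 (0.07 to 0.24) in MC38. The FPKM values of Klf4, 34.3 and 38.3 in CT26 and 23.8 and 25.8 in MC38, put its CT26 fold at 0.16, so the order of the lines for this gene depended on the unit.

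Klf5, which drives proliferation of crypt cells, had 4359 fragments in CT26 shGFP, 3603 in CT26 shmaurka-1, 414 in MC38 shGFP and 311 in MC38 shmaurka-1. Here the line mattered far more than the hairpin, with log2 folds of -0.15 (-0.22 to -0.09) in CT26 and -0.38 (-0.60 to -0.17) in MC38. On FPKM with a pseudocount of 0.1 the CT26 fold of Klf5 was -0.06. Klf6, a widely expressed early response gene, was the most abundant, with 18979 and 16913 fragments in CT26 and 4592 and 3339 in MC38, control first. For Klf6 the log2 fold was -0.05 (-0.08 to -0.02) in CT26 and -0.43 (-0.50 to -0.37) in MC38, the lowest MC38 value after Klf10. Klf7, known for its part in neurons and fat cells, had 4017 and 3200 fragments in CT26 and 2012 and 1805 in MC38. Its folds were -0.21 (-0.27 to -0.14) and -0.13 (-0.22 to -0.03), and on FPKM with a pseudocount of 0.1 they were -0.17 and -0.04.

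The CtBP-binding repressor Klf3 had 5864 fragments in CT26 shGFP, 5588 in CT26 shmaurka-1, 1761 in MC38 shGFP and 2034 in MC38 shmaurka-1. Its log2 fold was 0.05 in CT26, with an interval that included 0, and 0.24 (0.14 to 0.33) in MC38. Among the relatives of Klf10, the MC38 interval lay above 0 for Klf3 and Klf4 and below 0 for Klf5, Klf6, Klf7, Klf11 and Klf13. The share over all genes was not counted, so nothing is read from this. On FPKM with a pseudocount of 0.1 the MC38 fold of Klf3 was 0.13. The locus listed for Klf3, chromosome 5 from 64708206 to 64832901, starts well before the RefSeq gene at 64803521 and overlaps C230096K16Rik and Gm20033, so its count may include other transcripts.

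The Sin3-recruiting relatives are the nearest to Klf10 in mechanism, and their knockdown folds were nearer to 1 than that of Klf10. Klf11 had 384 fragments in CT26 shGFP, 337 in CT26 shmaurka-1, 1257 in MC38 shGFP and 948 in MC38 shmaurka-1. Its log2 fold was -0.07 (-0.28 to 0.15) in CT26 and -0.38 (-0.50 to -0.25) in MC38. Klf9, a target of glucocorticoid and thyroid hormone receptors, had 1987 and 1505 fragments in CT26 and 1276 and 1241 in MC38. That gave -0.28 (-0.38 to -0.18) in CT26 and -0.01 (-0.12 to 0.10) in MC38, the reverse of the order seen for Klf11. Klf13, which acts on chemokine expression in T cells, had 1892 and 1612 fragments in CT26 and 1152 and 940 in MC38, with folds of -0.11 (-0.21 to -0.01) and -0.26 (-0.39 to -0.14), or -0.17 and -0.21 on FPKM with a pseudocount of 0.1. Klf16, a gene of the same group outside the 10, had log2 folds of 0.12 in CT26 and 0.05 in MC38, and both counting intervals included 0. The loci of Klf7, Klf9 and Klf13 overlap other genes in the files (Gm13748, Gm26649 and Mir6899 with Klf7, Mir1192 with Klf9, E030018B13Rik and Gm27252 with Klf13), and whether the counting used strand is not given in the sources used here.

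Set line against line, the knockdown fold of Klf10 was 0.58 lower in MC38 than in CT26 on the log2 scale (counting interval -0.79 to -0.37), and 4.79% of all genes had a difference as low or lower. The counting interval of this difference lay away from 0 for 7 of the 10 genes, with MC38 lower for Klf5 (-0.23), Klf6 (-0.38), Klf10 and Klf11 (-0.31), and MC38 higher for Klf3 (0.19), Klf4 (0.15) and Klf9 (0.27). Over all genes that interval lay below 0 for 19.4% and above 0 for 19.4%, and it is narrower for genes with more fragments. On FPKM with a pseudocount of 0.1 the difference was 0.06 for Klf3, -0.34 for Klf5 and -0.04 for Klf4, which turned its direction. For scale, the median absolute difference between the lines over all genes was 0.19. With 1 library per condition no replicate spread stands behind these differences, and they were not tested.

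**Figure D3:**
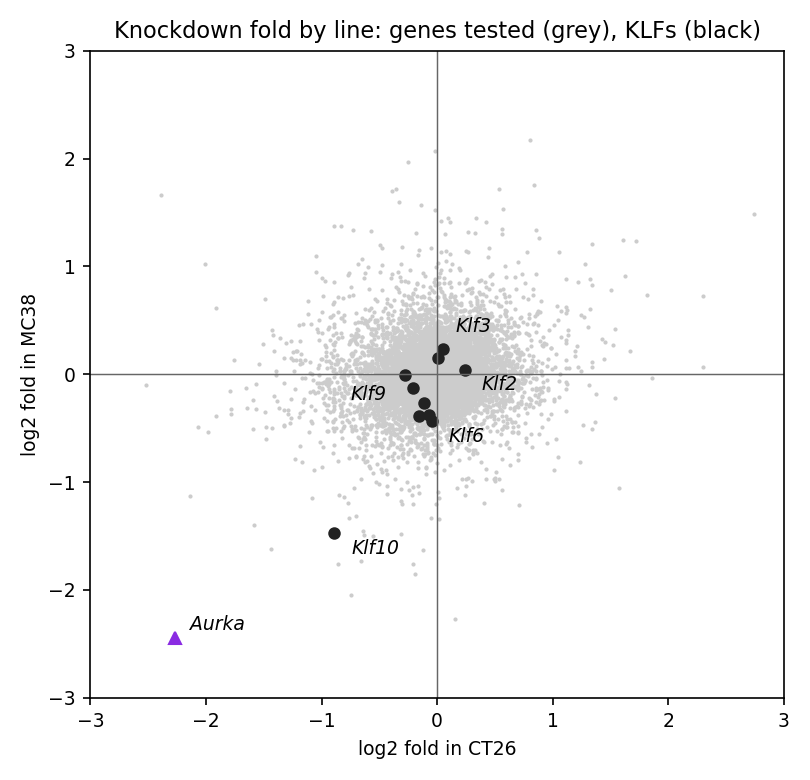
Log2 knockdown fold in CT26 (x axis) against that in MC38 (y axis) for the 11928 genes tested (grey, of which 8 lie outside the plotted range), with the 10 Kruppel-like factors in black and Aurka as a triangle. Klf10 stands in the lower left at -0.89 and -1.47, apart from the other 9 near the centre.

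The difference between the lines was not used to choose the genes, and edgeR's quasi-likelihood test was applied to it over 11928 genes, with hairpin as a block and Benjamini-Hochberg adjustment. Of all genes, 36.7% were called higher in MC38 and 36.6% higher in CT26. Of the 10 factors, 8 were called higher in CT26, 1 was called higher in MC38 and 1 was not called, and the largest adjusted p of the 9 calls was 3.26e-06. The lines were compared over 2 libraries each that differ in hairpin, and no condition has a replicate. The fit took the spread left after line and hairpin from all genes together. These p-values do not measure the spread between cultures of a line.

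Klf5 had the widest difference, 13.4-fold higher in CT26 (log2 difference MC38 minus CT26 -3.75 ± 0.12, SE). Klf6 was 5.57-fold higher in CT26 (-2.48 ± 0.10) and Klf3 was 3.68-fold higher (-1.88 ± 0.10). For these 3 genes the lowest CT26 library exceeded the highest MC38 library by a wide margin. Smaller differences in the same direction were found for Klf7 (2.29-fold), Klf13 (2.04-fold), Klf9 (1.67-fold) and Klf4 (1.41-fold, adjusted p = 3.26e-06, edgeR). The call for Klf4 was lost when libraries were scaled to their total counts (log2 difference -0.18, adjusted p = 0.0983, edgeR), a scaling that moved the median difference of all genes from 0.01 to 0.30 and the share of calls higher in MC38 from 50.1% to 65.9%.

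Klf11 ran the other way, 2.49-fold higher in MC38 (log2 difference 1.32 ± 0.14, adjusted p = 2.62e-21, edgeR), with both MC38 libraries above both CT26 libraries. Klf2 also had higher values in both MC38 libraries, by 0.32 ± 0.18, but was not called (adjusted p = 0.0855, edgeR), and under total-count scaling it was (0.64, adjusted p = 0.000467). In both hairpin pairs the same 8 genes were higher in CT26 and the same 2 in MC38.

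For Klf10 the difference between the lines was not the same with each hairpin. The libraries of the 2 lines overlap for it, since MC38 shGFP, at 1245 fragments, lies between the 2 CT26 values. CT26 was 1.30-fold higher in the shGFP pair (log2 difference -0.38, counting interval -0.49 to -0.27) and 1.95-fold higher in the shmaurka-1 pair (-0.96, -1.14 to -0.79). The fit with hairpin as a block gave 1.57-fold (-0.65 ± 0.13, adjusted p = 5.81e-07, edgeR), and without the block the call was lost (-0.56, adjusted p = 0.252). Under total-count scaling, with the block, the difference was -0.34 (adjusted p = 0.0111, edgeR). With line as the only term, the difference was 0.000631 without MC38 shmaurka-1 (adjusted p = 0.999, edgeR) and -0.0472 without CT26 shGFP (adjusted p = 0.913), fits in which hairpin is mixed with line. The gap between the hairpin pairs is the same number as the difference of knockdown folds given above, and is no separate result.

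**Figure D4:**
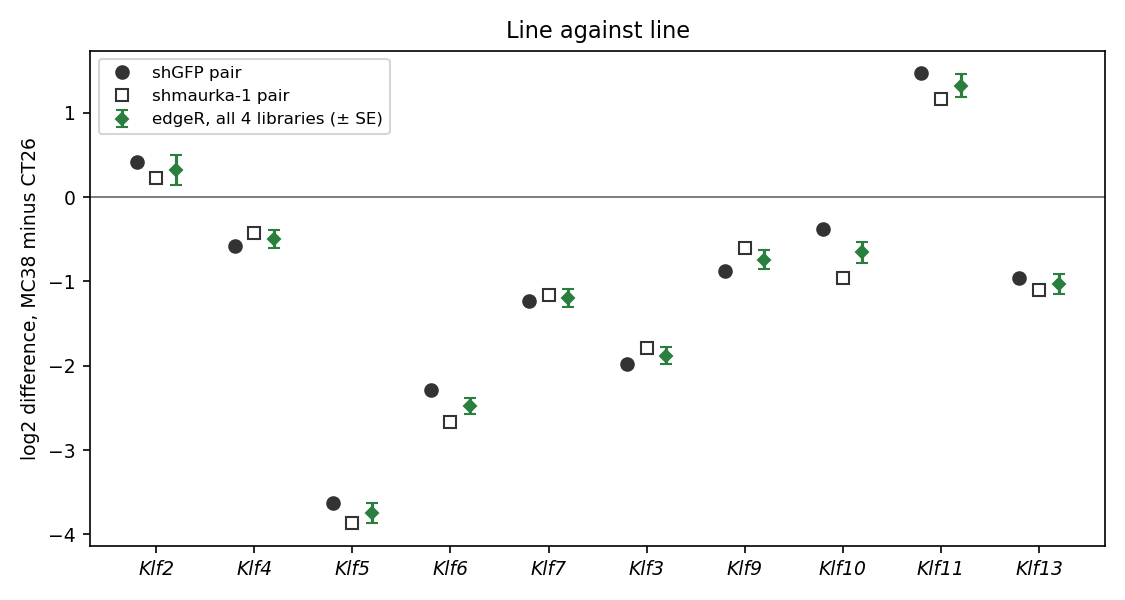
Log2 difference MC38 minus CT26 for each gene in the shGFP pair (circles), in the shmaurka-1 pair (squares) and in the edgeR fit over the 4 libraries (diamonds, bars are SE). Points below 0 are higher in CT26, from -3.75 for Klf5 in the fit, and Klf11 is the highest gene, at 1.47 in the shGFP pair and 1.32 in the fit.

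Levels of different genes were compared on the deposited FPKM values, which are per length. Summed over the 17 family genes, FPKM was 586.1 in CT26 shGFP, 565.7 in CT26 shmaurka-1, 208.4 in MC38 shGFP and 180.9 in MC38 shmaurka-1. Klf6 held 44.6% of the sum in both CT26 libraries and 25% and 21.3% in MC38 control and knockdown. Klf5 held 15.7% and 15.6% in CT26 but 3.61% and 3.13% in MC38, so it was second in CT26 and far down the order in MC38.

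Klf10 had FPKM values of 23.6 in CT26 shGFP, 12.9 in CT26 shmaurka-1, 17.9 in MC38 shGFP and 6.43 in MC38 shmaurka-1. Its share of the family sum was 4.03% and 2.29% in CT26 and 8.57% and 3.55% in MC38, control first. Thus the share was higher in each MC38 library than in the CT26 library with the same hairpin, although the FPKM was lower. By rank it was 7th of 17 in CT26 shGFP, 8th in CT26 shmaurka-1, 5th in MC38 shGFP and 9th in MC38 shmaurka-1. Klf11 held 0.933% and 0.94% in CT26 and 7.18% and 6.36% in MC38.

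The order by FPKM in CT26 was Klf6, Klf5, Klf3, Klf4, Klf7, Klf9, Klf10, Klf13, Klf11 and Klf2. Neighbouring ranges over the 2 CT26 libraries overlapped for Klf9 with Klf10, Klf10 with Klf13 and Klf11 with Klf2. In MC38 the order was Klf6, Klf4, Klf3, Klf9, Klf11, Klf10, Klf7, Klf5, Klf2 and Klf13, and the ranges of Klf9 and Klf11, Klf11 and Klf10, Klf10 and Klf7, and Klf5 and Klf2 overlapped. Klf10 had the widest range of these genes relative to its level in each line, since its 2 libraries there differ most.

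**Figure D5:**
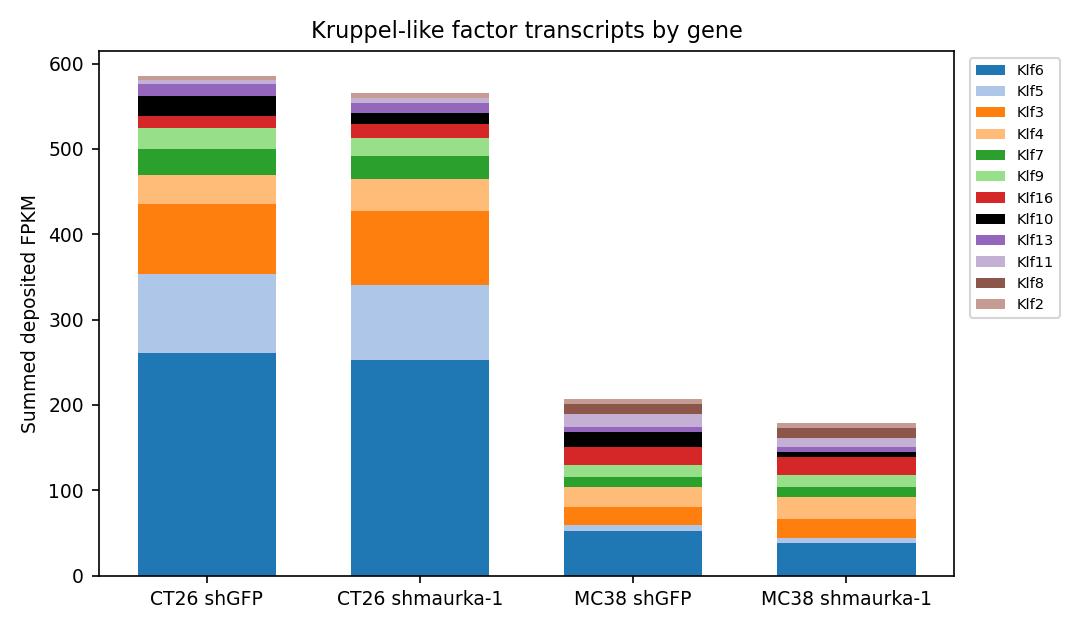
Deposited FPKM of the Kruppel-like factor genes, stacked by gene for each library, with Klf10 in black. The stacks reach about 586.1 and 565.7 in CT26 and 208.4 and 180.9 in MC38, with Klf6 as the largest block in each, and 5 family genes of lower level are left out.

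Of the 7 family genes outside the 10, 2 passed the count filter. Neither was called for a common knockdown effect, where 1.67% of all genes were called higher and 1.12% lower. Klf16, another Sin3-recruiting factor, had 818 and 816 fragments in CT26 and 1472 and 1489 in MC38. It was called higher in MC38 (log2 difference 0.57, adjusted p = 4.36e-06, edgeR), as were 36.7% of all genes. Klf15, a regulator of gluconeogenesis, had 16 and 17 fragments in CT26 and 64 and 54 in MC38 and was also called higher there (1.54, adjusted p = 4.51e-05, edgeR). The CtBP-binding Klf8 did not pass the filter in CT26, at 1 fragment in each CT26 library against 707 in MC38 shGFP and 603 in MC38 shmaurka-1. The scaled ratio of MC38 to CT26 for Klf8 in the shGFP pair, which rests on that 1 fragment, was 599.1 with no count added, with a counting interval from 6.74 to 14.5 in log2 units, and the log2 difference was 8.27 with 1 count added.

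Factors and partners that share sites or complexes with these genes were taken from lists written for this description. Of the SP factors, which bind the same GC boxes, 4 of 9 passed the filter (Sp1, Sp2, Sp3 and Sp4), and 0 were called for a common knockdown effect, where 1.67% of all genes were called higher and 1.12% lower. Between the lines, where 36.7% of all genes were called higher in MC38 and 36.6% in CT26, Sp4 was called higher in MC38, with 71 and 70 fragments in CT26 and 447 and 395 in MC38 (log2 difference 2.29, adjusted p = 8.02e-30, edgeR), and the other 3 higher in CT26. Of 14 corepressors and coactivators, among them Sin3a, Hdac1 and Ctbp1, all passed and 0 were called for the knockdown, and 5 were called higher in MC38 and 6 in CT26. Of 7 ubiquitin ligases that act on Kruppel-like factors or on TGF-beta receptors and Smads, such as Itch and Fbxw7, 0 were called for the knockdown, and Siah1b was past 1.5-fold in CT26, as were 3.2% of all genes, from 407 to 576 fragments, against 311 and 260 in MC38.

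Of 21 TGF-beta signalling and early target genes, the class from which Klf10 took its first name, all passed the filter, and 1 was called lower and 0 higher, beside 1.12% and 1.67% of all genes. The called gene was Bhlhe40, a basic helix-loop-helix repressor, with 6607 fragments in CT26 shGFP, 3288 in CT26 shmaurka-1, 776 in MC38 shGFP and 570 in MC38 shmaurka-1. Its common log2 change was -0.68 (adjusted p = 1.52e-07, edgeR). The adjusted p was 0.0127 with DESeq2, and the call was lost with limma on FPKM (adjusted p = 0.542) and in edgeR without the cell line block (adjusted p = 1.0). The locus of Bhlhe40 overlaps 0610040F04Rik, Gm17055 and Gm38167. Id2, which blocks helix-loop-helix factors, was like Bhlhe40 below 0.6-fold in CT26, as were 2.57% of all genes, from 342 to 166 fragments, but had 93 and 105 in MC38. The median log2 fold of the list was -0.20 in CT26 and -0.09 in MC38, beside -0.01 and 0.00 over all genes.

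The genes whose pattern over the 4 libraries was most like that of Klf10 were found by the Euclidean distance between centred log2 levels among 10025 genes, of which the median distance was 1.51. Nipa2, a magnesium transporter, lay at 0.387, with 1047, 533, 1046 and 471 fragments in CT26 shGFP, CT26 shmaurka-1, MC38 shGFP and MC38 shmaurka-1. Gm42715 (0.513), the redox regulator Txnip (0.52) and the growth factor Pdgfc (0.617) followed. These 4 genes were picked for this likeness, and the locus of each overlaps other genes in the files.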

How the data were processed

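RNA from the 4 libraries was sequenced by a service company on an Illumina instrument after strand-specific library preparation. The submitters' processing notes name Trimmomatic 0.36, HISAT2, Cufflinks 2.2.1 and Cuffdiff. For every gene and library the authors deposited 2 values, an estimated count and FPKM. The notes name GRCm39, but 99.8% of 20020 loci matched the same symbol's position in GRCm38.p6 RefSeq and 9.64% of 23045 did so in GRCm39, so coordinates are GRCm38.

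Deposited estimated counts were whole multiples of 1 step per library (0.885 to 1.17) for 97.0% to 97.6% of values within 0.05, and division by it gave the fragments. Rounded counts were fitted in edgeR 4.0.16 (R 4.3.3) with TMM and Benjamini-Hochberg adjustment over the 11928 genes that averaged 10 counts or more in both lines. The fit had 1 residual degree of freedom and infinite prior degrees of freedom. Intervals within a line are exact conditional binomial intervals on fragments. Those for the difference between lines use the Poisson variance. DESeq2 1.42.0, limma 3.58.1, other scalings, filters, pseudocounts and leaving out each library were alternatives. Python 3.11.15, numpy 2.4.6, scipy 1.17.1 and pandas 2.3.3 were used for the rest. Of the files' value columns, 0 were left unused.

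The members and lists were chosen with earlier results of these data known. Genes named are the 10 members, Aurka, genes of the lists that were called or past a threshold, up to 6 a list, and the 5 nearest to Klf10, of which 1 is not reported here. Klf8 was added after its values were seen. Replicate numbers are not given in the labels, and hairpin and cell line served as the blocks.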

Additional observations from a re-analysis of the deposited data

How the results depend on the processing

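The log2 fold of Klf10 in CT26 ran from -0.91 to -0.82, and that in MC38 from -1.49 to -1.34, over 8 alternatives of scaling, added count and unit, and the difference of folds from -0.61 to -0.52. For Klf4 that difference reversed on FPKM (-0.0445 with a pseudocount of 0.1 and -0.0447 with 1). The line difference of Klf10 was -0.38 in the shGFP libraries only, -0.96 in the shmaurka-1 libraries only, -0.56 with no knockdown block and -0.34 under total-count scaling. Leaving out each library in turn, chosen after seeing the data, with line as the only term, gave -1.48 (without MC38 shGFP) to 0.000631 (without MC38 shmaurka-1, adjusted p = 0.999, edgeR), and -0.0472 without CT26 shGFP (adjusted p = 0.913), since hairpin then mixes with line by construction. The lone library is assumed to vary like the others. Line calls of the other members changed only for Klf2 and Klf4 under total-count scaling.

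The common knockdown test, which called 333 genes, called 101 with at least 50 counts, 29 with DESeq2, 8 with limma on FPKM and 0 with no cell line block (13 with unadjusted p below 0.05). Bhlhe40 was not called by limma (adjusted p = 0.542) or without the block (adjusted p = 1.0) and was in 7 other alternatives. Genes above 1.5 numbered 382 in CT26 and 295 in MC38, 203 and 127 on FPKM with a pseudocount of 1, and 177 and 93 with at least 50 counts. Genes below 0.6 numbered 306 and 123, then 77 and 27, and 80 and 31, and 512 and 241 with a lower threshold of 1/1.5. The depth limits Klf8 and the other genes near 3 fragments.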
